A study of Mus musculus with 2 samples.

Results

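Foxp3-positive regulatory T cells (Treg cells) are described here in tumours of mice that received DFMO or water. A cell was counted as a Treg cell when it held at least 1 UMI (unique molecular identifier, a counted RNA molecule) of Foxp3 and at least 1 of Cd3d, Cd3e or Cd3g. It also had to hold no UMI of Cd8a, Cd8b1 or Cd79a, at most 2 of Lyz2 and at most 3 of the cell cycle genes Mki67, Top2a, Birc5 and Cdk1 together. These limits chose 178 of the 10720 deposited cells, 93 of 4472 in the DFMO library and 85 of 6248 in the water library. DFMO (difluoromethylornithine) blocks ornithine decarboxylase, which converts ornithine to putrescine and so starts polyamine synthesis. MC38, a mouse colon carcinoma cell line, was implanted in C57BL/6 mice, and gavage with DFMO or water began on day 7 and lasted 14 days. The labels do not give 1 consistent number of doses per day, and they give no age for the animals. Tumours were digested, immune cells were enriched on Ficoll, and cells of 4 mice per group were pooled into 1 Chromium 5′ library per group.

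With 1 library per group no test between the groups was possible, and no p-value is given. Intervals in square brackets are exact 95% intervals that cover counting error only, not the spread between mice or libraries. Those of CPM and of ratios treat summed UMIs as independent and also leave out the spread between cells. The Treg cells held 291987 UMIs with DFMO and 272292 with water. A DFMO Treg cell had a median of 2391 UMIs (807 to 20841) and a water Treg cell 2633 (943 to 22061), and the median number of genes was 1295 in both libraries. Levels are given as CPM, the UMIs of a gene scaled to a total of 1000000 UMIs, after summing the cells of a set. In such sums, fewer cells with a transcript and less transcript per cell cannot be told apart, so the number of cells with a UMI is given beside the main values.

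Treg cells restrain other T cells and are marked by the transcription factor Foxp3. They carry the high-affinity interleukin-2 receptor chain Il2ra, the inhibitory receptor Ctla4 and the costimulatory receptors Tnfrsf4 and Tnfrsf18. In lymphoid organs many Treg cells are in a resting state with genes such as Ccr7 and Lef1, whereas Treg cells in tissues and tumours often carry an effector programme with Ccr8, Klrg1, Batf and Tnfrsf9.

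Some library facts bear on these cells. B cells made up 34.1% of the cells in the DFMO library and 1.47% in the water library. Of the barcodes, 37 occurred in both libraries, and 1 Treg cell carried such a barcode. Of the Treg cells, 7 held at least 10 UMIs of the marker list of another cell type, 3 with DFMO and 4 with water. Fibroblast and tumour-like markers led in 4 of them (51 to 226 UMIs), natural killer cell markers in 2 (79 and 109 UMIs) and macrophage markers in 1 (23 UMIs). These cells held 16.2% of the DFMO and 16.04% of the water UMIs, and results that rest on them are given also without them. In the whole sets, fibroblast and tumour-like markers summed to 983 CPM [872, 1103] and 1113 CPM [991, 1245], and macrophage markers to 24.0 CPM [9.64, 49.4] and 129 CPM [89.5, 179], with DFMO and water. Ms4a1 and Bank1 of B cells, Jchain and Mzb1 of plasma cells, and S100a8, S100a9 and Retnlg of neutrophils were at 0 in both. The whole B cell list still summed to 13 UMIs in 10 DFMO cells and 9 UMIs in 8 water cells. Dendritic cell markers summed to 20 UMIs in 3 DFMO cells and 26 UMIs in 5 water cells.

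Promoter sequences of 3 genes the results return to, Foxp3, the receptor gene Tnfrsf4 and Odc1 (the gene of ornithine decarboxylase), are shown for context. Each is the 250 bases before the start of the gene in RefSeq on GRCm38.p6, plus strand, 5′ to 3′. The windows lie at chrX:7579426-7579675, chr4:156013445-156013694 and chr12:17544623-17544872. In the GENCODE M21 annotation of mm10 the genes span chrX:7573644-7595245 (Foxp3), chr4:156013843-156016612 (Tnfrsf4) and chr12:17544794-17551505 (Odc1), and the Foxp3 window is that of 1 of the 2 starts listed for the gene. Capitals mark a match to 1 of 4 motifs searched on both strands, which were TGANTCA (AP-1), TTCNNNGAA (STAT), TGTTTAC (forkhead) and CACGTG (E-box).
Foxp3: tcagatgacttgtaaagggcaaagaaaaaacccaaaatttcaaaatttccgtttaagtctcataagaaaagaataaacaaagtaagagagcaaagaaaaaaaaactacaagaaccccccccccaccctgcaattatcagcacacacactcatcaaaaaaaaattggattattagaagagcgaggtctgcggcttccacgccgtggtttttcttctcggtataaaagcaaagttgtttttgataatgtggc
Tnfrsf4: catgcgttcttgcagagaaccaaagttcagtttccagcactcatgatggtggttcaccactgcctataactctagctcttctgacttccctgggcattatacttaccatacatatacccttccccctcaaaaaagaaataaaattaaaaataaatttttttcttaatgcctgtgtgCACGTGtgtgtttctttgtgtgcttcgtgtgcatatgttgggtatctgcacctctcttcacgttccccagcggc
Odc1: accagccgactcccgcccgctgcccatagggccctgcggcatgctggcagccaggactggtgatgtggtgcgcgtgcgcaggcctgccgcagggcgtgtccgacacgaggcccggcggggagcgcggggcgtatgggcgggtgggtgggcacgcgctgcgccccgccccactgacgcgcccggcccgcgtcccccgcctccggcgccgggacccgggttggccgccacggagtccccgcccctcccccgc
The Tnfrsf4 window holds 1 E-box match and the windows of Foxp3 and Odc1 hold no match of the 4 motifs. The Odc1 window has 80.0% G and C with 35 CpG, against 37.6% with 6 CpG for Foxp3 and 42.8% with 5 CpG for Tnfrsf4. Of all 27025 genes with a window, 7.82% had an AP-1 match and 8.13% a STAT match in any window of the gene. A forkhead match was found in 3.54% of them and an E-box match in 6.86%. Among 51 matched genes of the 69 that were at least 2-fold higher in Treg cells than in Foxp3-negative CD4 T cells of both libraries, leaving out Foxp3 and 1 T cell receptor segment, the shares were 11.8%, 15.7%, 3.92% and 5.88%. These last shares rest on 6, 8, 2 and 3 genes. A match describes letters in the window and is no evidence of binding.

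The rule used Foxp3, and its levels are therefore a description. Foxp3 was at 1 UMI in 38 DFMO and 29 water Treg cells, at 2 in 19 and 23, and at 3 or more in 36 and 33, with a highest value of 12 and 8. Just outside this limit stood 762 DFMO and 339 water cells with CD3 but no CD8 and no Foxp3 UMI. At the cell cycle limit, 4 DFMO and 1 water Treg cell held 3 UMIs, and 0 and 2 cells with 4 UMIs were left out. In all, 13 DFMO and 18 water cells were left out by that limit alone. At the CD3 limit, 1 and 2 Treg cells held 1 UMI, and no Treg cell held the 2 Lyz2 UMIs the rule allowed.

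The other 5 markers, which the rule did not use, were found together more often in Treg cells than in the other cells compared. Treg cells and gene lists were chosen with earlier results of these data known, so these shares are a description. At least 2 of Il2ra, Ctla4, Tnfrsf4, Ikzf2 (the transcription factor Helios) and Izumo1r (the folate receptor family member FR4) were found in 78 of 93 DFMO Treg cells (83.9% [74.8, 90.7]) and in 82 of 85 water Treg cells (96.5% [90.0, 99.3]). In Foxp3-negative CD4 T cells, chosen by the same limits with a Cd4 UMI in place of Foxp3, the share was 15.97% (of 263 cells) and 33.9% (of 62 cells). In CD8 T cells it was 14.1% (of 754) and 21.02% (of 647), and in B cells 0 of 1524 cells, which allows a share of up to 0.197%, and 1.09% (of 92). With every cell thinned to 1000 UMIs the shares were 67.8% and 88.0% in Treg cells and 8.17% and 25.4% in Foxp3-negative CD4 T cells. Median depths before thinning were 1872 and 1840 UMIs in Foxp3-negative CD4 T cells, and 1780 and 1808.5 in B cells. None of the 5 markers was found in 7 DFMO Treg cells and in 0 water Treg cells, which allows up to 3.53%. Each of these 7 cells held 1 Foxp3 UMI, and all 7 fell among the resting-type cells described below. A Cd4 UMI was found in 38 DFMO (40.9%) and 37 water (43.5%) Treg cells.

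Treg cells made up 10.9% [8.87, 13.2] of CD3-positive CD8-negative cells with DFMO (93 of 855) and 20.05% [16.3, 24.2] with water (85 of 424). The share was lower in the DFMO library and the counting intervals did not overlap. After thinning to 1000 UMIs the shares were 7.08% and 13.8%, against 10.9% and 21.2% unthinned in the same cells, with 30 and 33 shallower cells left out. The order depended on the denominator. Of all CD3-positive cells, Treg cells made up 4.92% [3.99, 5.99] with DFMO and 6.14% [4.93, 7.54] with water, and of all cells 2.08% [1.68, 2.54] and 1.36% [1.09, 1.68], where the DFMO share was the higher one. Beside these shares stands the larger number of Foxp3-negative CD4 T cells in the DFMO library, 263 against 62.

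Treg cells of the DFMO library were divided between a resting and an effector state, whereas those of the water library were mostly in the effector state. Each cell was scored by its UMIs of 6 resting genes (among them Ccr7, Lef1, Tcf7, Klf2 and S1pr1) and of 6 effector genes (Ccr8, Tnfrsf9, Batf, Klrg1, Gzmb and Maf), and was called resting-type or effector-type by the larger sum. With DFMO, 48 of 93 Treg cells were resting-type (51.6% [41.0, 62.1]) and 41 effector-type (44.1% [33.8, 54.8]). With water, 11 of 85 were resting-type (12.9% [6.64, 21.98]) and 73 effector-type (85.9% [76.6, 92.5]). The other 4 and 1 cells were tied. Among Treg cells with a UMI of at least 1 of the 5 markers, the resting-type share was 47.7% [36.8, 58.7] with DFMO (41 of 86) and 12.9% with water. The classes are ranges of a score, and 8 DFMO and 7 water cells lay within 1 UMI of the border. After thinning, the resting-type shares were 48.9% and 14.5%, and in cells with a Cd4 UMI they were 31.6% and 10.8%. Median depth was 1942.5 and 1934 UMIs in resting-type cells and 3536 and 2864 UMIs in effector-type cells.

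**Figure D1:**
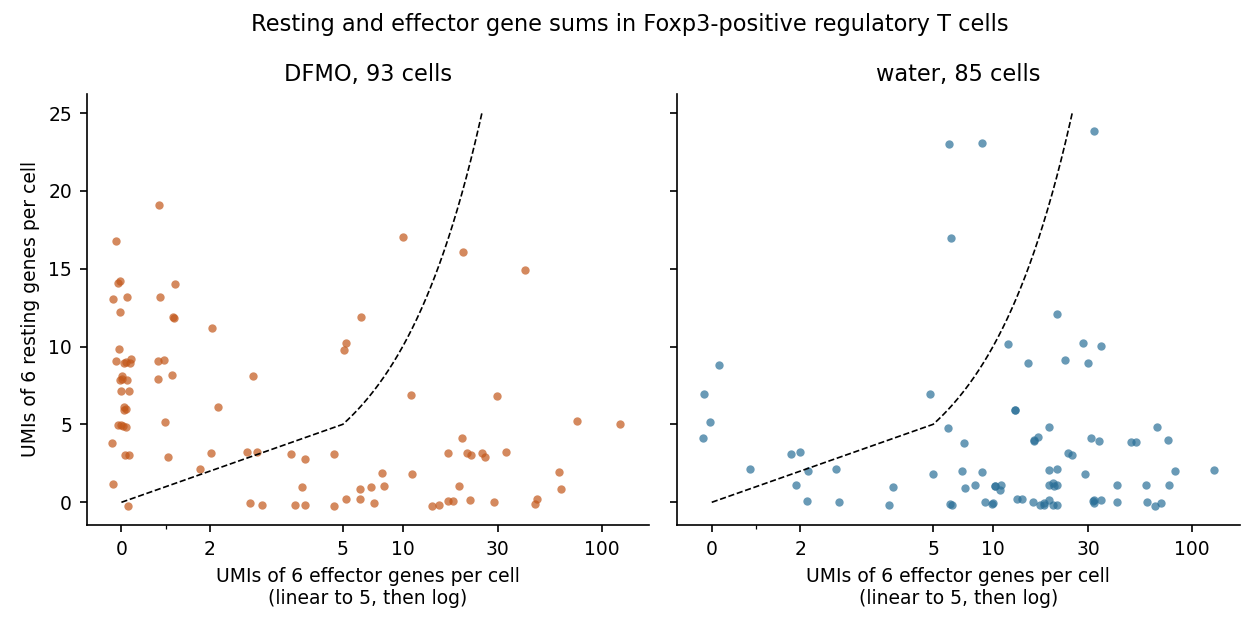
UMIs of the 6 resting genes (vertical axis, linear) against UMIs of the 6 effector genes (horizontal axis, linear to 5 and then logarithmic), 1 point per Treg cell, with a small random shift so that points do not cover each other. Points above the dashed line of equal sums are resting-type cells, 48 of 93 in the DFMO library (left) and 11 of 85 in the water library (right).

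The same order between libraries was seen in other T cells. Resting-type cells were 89.7% [85.4, 93.1] of Foxp3-negative CD4 T cells with DFMO and 41.9% [29.5, 55.2] with water, and 68.6% [65.1, 71.9] and 17.8% [14.9, 20.9] of CD8 T cells. B cells were also more frequent in the DFMO library, as given above. The part of these library-wide differences in the values of the Treg cells was not tested.

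The few resting-type Treg cells of the water library were unlike those of the DFMO library in the genes that placed them there. Klf2, a transcription factor of quiescent T cells, was at 4692 CPM in the 11 water cells and at 1613 CPM in the 48 DFMO cells. Ccr7, which guides T cells to lymph nodes, had 0 UMIs in the water cells and 52 in the DFMO cells. Lef1 had 2 and 46 UMIs, and Tcf7 had 0 and 27 UMIs. The water cells held 19607 UMIs in all, so that a gene with 0 UMIs there may reach 153 CPM (3 UMIs). Of the 37 interferon response genes listed, 30 had a higher and 7 a lower CPM in these 11 cells than in the DFMO cells. The counting intervals were apart for 14 of the 30 and for 0 of the 7. Of the 15 listed genes with at least 30 UMIs, 12 were higher and 3 lower, with intervals apart for 9 and 0. The share over all genes was not taken for resting-type cells, so these counts have no background beside them. Ifit1 was at 3213 CPM [2469, 4111] with UMIs in 10 of 11 cells, against 276 CPM [191, 385] in 16 of 48 DFMO cells. Isg15 was at 3111 CPM [2380, 3996] against 527 CPM [407, 672]. Because 11 cells are under the 30 set for a ratio, no ratio between the libraries was taken for resting-type cells.

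Within the DFMO library, resting-type Treg cells were near effector-type cells in Foxp3, Il2ra and Izumo1r, lower in the other lineage markers and low in suppressive and costimulatory genes. At least 2 of the 5 markers beside Foxp3 were found in 34 of 48 resting-type cells (70.8% [55.9, 83.0]) and in 41 of 41 effector-type cells. Counts of cells in this paragraph were not thinned, and median depth was 1942.5 UMIs in resting-type and 3536 UMIs in effector-type cells. Foxp3 was at 876 CPM in resting-type and 804 CPM in effector-type cells. Il2ra was at 349 CPM and 399 CPM (log2 ratio of resting over effector -0.19 [-0.79, 0.39]) and Izumo1r at 916 CPM and 1078 CPM (-0.23 [-0.59, 0.12]). Ctla4 was lower in resting-type cells, at 300.0 CPM in 20 of 48 cells against 1396 CPM in 37 of 41 cells (-2.22 [-2.76, -1.71]). Ikzf2 was at 373 CPM in 26 of 48 cells against 561 CPM in 36 of 41 cells (-0.59 [-1.13, -0.06]). Tnfrsf4 was lower too, at 705 CPM in 23 of 48 cells against 2897 CPM in 39 of 41 (-2.04 [-2.39, -1.71]). Over all 1771 genes with at least 30 UMIs in the compared cells, 129 (7.28%) were at least 2-fold higher and 171 (9.66%) at least 2-fold lower in resting-type cells, with a median log2 ratio of 0.04. Without the marker-rich cells, 121 of 1455 (8.32%) and 163 (11.2%) were past these limits.

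Of the 25 suppressive molecules listed, 12 reached 30 UMIs, and all 12 were lower in resting-type cells, 8 of them at least 2-fold (median -1.60), among them Gzmb, which is part of the effector score. They included Tigit, an inhibitory receptor, at 89.2 CPM against 698 CPM (-2.97 [-4.01, -2.07]). Lag3, another one, had 0 against 59 UMIs (15.1-fold lower with the 0 taken as 3 UMIs). The costimulatory receptor Icos was at 211 CPM against 991 CPM (-2.23 [-2.89, -1.63]) and Tnfrsf18 (GITR) at 576 CPM against 1601 CPM (-1.48 [-1.88, -1.09]). Other genes low in resting-type cells were the chemokine Ccl5 with 3 against 250 UMIs (-6.00 [-8.29, -4.44]), the glutaredoxin gene Glrx (-3.54), the interferon-inducible Ly6a (-2.80) and Pglyrp1 (-2.45). Of 28 interferon response genes, 25 were lower in resting-type cells, 10 at least 2-fold (median -0.78). In the opposite direction stood Bcl2, a survival factor, with 27 against 4 UMIs (3.13 [1.61, 5.11]), and Id3, an inhibitor of E proteins, with 65 against 12 (2.82 [1.92, 3.84]), 91.7% of the 12 in 1 cell. All 6 measured genes of the MYC and ribosome biogenesis list were higher (median 1.24), among them Npm1 at 2173 CPM against 916 CPM (1.25 [0.95, 1.55]). S100a6, Dcn and Cd63 are not read in this comparison, because 1 fibroblast-marker-rich cell carried 98% of the resting-type S100a6 UMIs.

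When all Treg cells of a library were compared, those of DFMO were higher in naive and recirculation genes and lower in effector, suppressive and interferon genes. Over all 3180 genes with at least 30 UMIs, 178 (5.60%) were at least 2-fold higher and 98 (3.08%) at least 2-fold lower with DFMO, and the log2 ratios of DFMO over water had a median of 0.08. With TMM library sizes, an edgeR scaling, the numbers were 109 and 162, since this scaling moved the median of all genes by -0.17. Directions near 0 are therefore not read.

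Of the 18 naive and recirculating genes listed, 14 reached 30 UMIs, 12 of them were higher and 8 at least 2-fold higher with DFMO (median 2.08, or 1.43 without the genes at 0 in water). Ccr7, Lef1, Tcf7, Klf2 and S1pr1 of this list also help to define the resting score. S1pr1, the receptor that lets T cells leave tissues, had 44 UMIs in 28 DFMO cells and 6 UMIs in 5 water cells (2.77 [1.54, 4.30]). Igfbp4 had 49 UMIs in 13 DFMO cells and 0 UMIs in water, 15.2-fold higher with the 0 taken as 3 UMIs. Nsg2 had 48 UMIs in 29 cells and 1 UMI in 1 cell (5.48 [2.94, 10.82]). Ly6c1 was at 421 CPM in 19 DFMO cells and 114 CPM in water (1.89), where all 31 UMIs came from 1 cell rich in natural killer cell markers. In cells with a Cd4 UMI only 5 genes of the list reached 30 UMIs, and their median was -0.32. Among identity factors, Id3 had 78 UMIs in 29 DFMO cells and 2 UMIs in 2 water cells (5.18 [3.28, 8.26]), and 12 of 16 measured factors were higher (median 0.52).

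**Figure D2:**
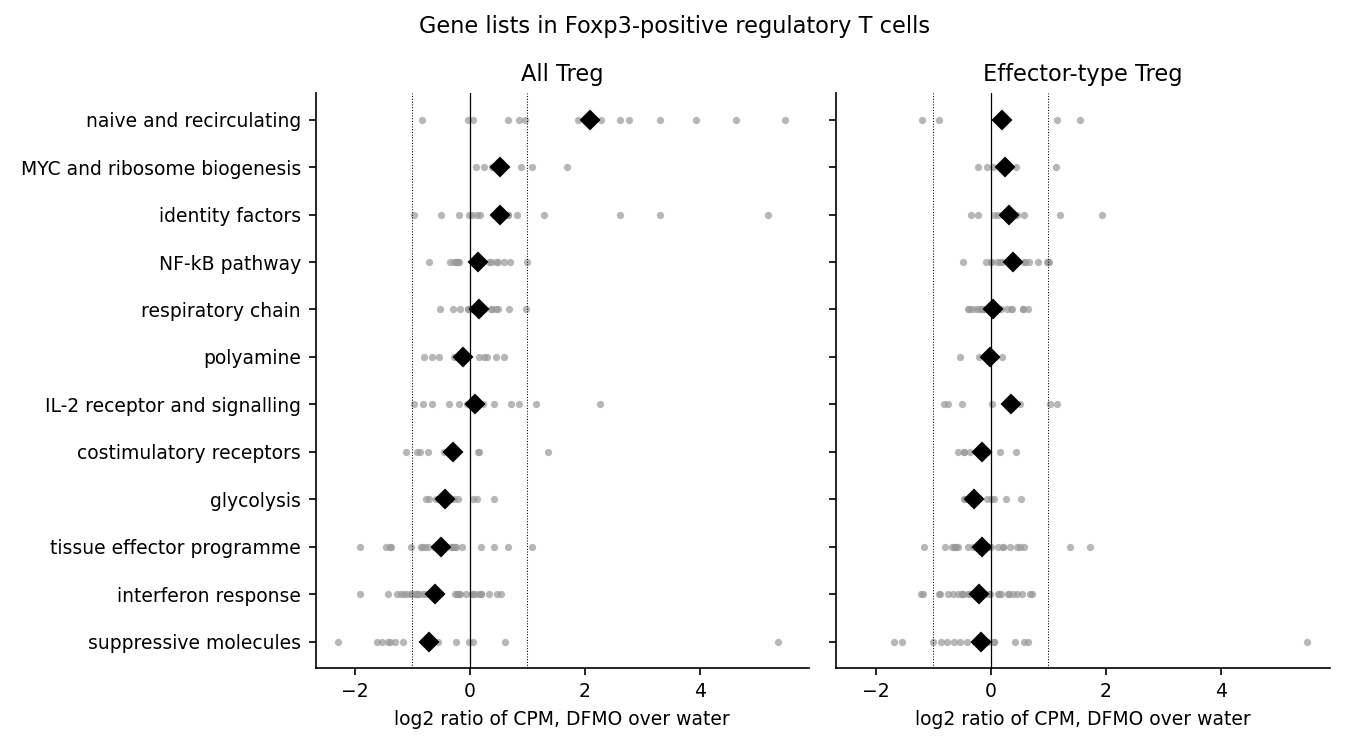
Log2 ratio of CPM of DFMO over water for the genes of 12 lists with at least 30 UMIs (grey points) and the median of each list (black diamonds), in all Treg cells (left) and in effector-type Treg cells (right), with dotted lines at a 2-fold difference. Genes at 0 in water are drawn with the 0 taken as 3 UMIs. The naive and recirculating list has a median of 2.08 in all Treg cells and 0.20 in effector-type cells, and the suppressive list of -0.71 and -0.17. Without cells rich in other markers, the effector-type medians are -0.027 and -0.34.

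Of 25 suppressive molecules, 18 were measured and 15 were lower with DFMO, 7 at least 2-fold (median -0.71). Gzmb, the cytotoxic protease granzyme B, was at 1281 CPM in 25 of 93 DFMO cells and 3357 CPM in 61 of 85 water cells (-1.39 [-1.57, -1.21]). Lag3 was at 202 CPM in 16 cells and 496 CPM in 40 cells (-1.29 [-1.76, -0.84]). The cytokine gene Il10 was at 65.1 CPM in 8 cells and 187 CPM in 21 cells (-1.53 [-2.37, -0.74]). Areg, the repair factor amphiregulin, had 14 UMIs in 7 cells and 40 UMIs in 16 cells (-1.62 [-2.61, -0.71]). Penk, which encodes proenkephalin, was at 54.8 CPM in 4 cells and 268 CPM in 9 cells (-2.29 [-3.17, -1.50]). Higher in this list were Izumo1r (values below), Tnfaip8 (0.06 [-0.57, 0.69]) and Cd83, an activation marker, with 44 UMIs in 16 of 93 DFMO cells and 1 UMI in 1 of 85 water cells (5.36 [2.81, 10.69]). Cd83 was the only member of the list that was at least 2-fold higher.

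Costimulatory receptors were mostly lower with DFMO, 9 of 12 measured, 1 of them at least 2-fold (median -0.29). Icos was at 654 CPM in 49 cells and 1414 CPM in 73 cells (-1.11 [-1.37, -0.86]). Tnfrsf18 was at 1151 CPM in 74 cells and 2178 CPM in 81 cells (-0.92 [-1.12, -0.72]). Slamf6, a receptor of less differentiated T cells, stood on the other side with 36 UMIs in 27 cells and 13 UMIs in 12 cells (1.37 [0.42, 2.41]). Among the 6 lineage markers, Il2ra was at 377 CPM in 46 cells and 661 CPM in 58 cells (-0.81 [-1.17, -0.46]). Tnfrsf4 was at 1945 CPM in 66 of 93 cells and 3206 CPM in all 85 cells (-0.72 [-0.88, -0.57]). Ctla4 was at 908 CPM in 58 cells and 1439.6 CPM in 61 cells (-0.67 [-0.90, -0.44]). Izumo1r stood higher with DFMO, at 1055 CPM in 64 cells and 687 CPM in 52 cells (0.62 [0.35, 0.89]). Ikzf2 was at 486 CPM and 492 CPM (-0.02 [-0.37, 0.33]).

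In the tissue effector programme 20 of 24 measured genes were lower with DFMO, 5 at least 2-fold (median -0.50). The chemokine receptor Cxcr6 had 12 UMIs in 5 cells and 42 UMIs in 18 cells (-1.91 [-2.97, -0.96]), and Nkg7, a cytotoxic granule gene, was at 336 CPM and 918 CPM (-1.45 [-1.80, -1.11]). Itgae (CD103), an integrin chain of tissue-resident T cells, was at 147 CPM in 20 DFMO cells and 69.8 CPM in 12 water cells (1.08 [0.27, 1.94]). Of 35 interferon response genes 26 were lower, 7 at least 2-fold (median -0.60). Isg15 was at 846 CPM in 61 cells and 1939 CPM in 65 cells (-1.20 [-1.42, -0.98]), and Bst2 at 867 CPM in 41 cells and 1763 CPM in 70 cells (-1.02 [-1.25, -0.80]). The 14 glycolysis genes had a median of -0.43 with none past 2-fold, and Pkm was at 1647 CPM and 2402 CPM (-0.54 [-0.72, -0.37]). All 9 measured MYC and ribosome biogenesis genes were higher (median 0.52, or 0.35 with TMM sizes, where Eif4a1 at 0.10 falls below 0). In this list the nucleolar proteins Npm1, at 1445 CPM and 687 CPM (1.07 [0.82, 1.33]), and Fbl, with 73 and 21 UMIs (1.70 [0.98, 2.47]), were past 2-fold.

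Among the genes with the most extreme ratios of at least 100 UMIs, the chemokine Ccl4 was at 435 CPM in 11 DFMO cells and 1594 CPM in 28 water cells (-1.87 [-2.17, -1.59]). The metallothionein Mt1 was at 377 CPM in 13 cells and 1352 CPM in 33 cells (-1.84 [-2.16, -1.53]), with 43% and 42% of its UMIs in 1 cell each. Higher with DFMO were the tubulin gene Tuba1b at 572 CPM and 162 CPM (1.82 [1.34, 2.34]) and Nr4a1, which is induced by T cell receptor signals, at 288 CPM and 132 CPM (1.12 [0.54, 1.73]). H19 had the lowest ratio (-3.02), with 92% of its water UMIs in 1 cell. Without the 7 cells rich in other markers, 178 of 2756 genes (6.46%) were at least 2-fold higher and 106 (3.85%) at least 2-fold lower. The list medians were then 2.59 for naive and recirculating genes (0.94 without those at 0 in water), -0.78 for suppressive molecules, -0.68 for the tissue effector programme, -0.61 for the interferon response and 0.996 for 7 MYC and ribosome biogenesis genes.

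Within effector-type Treg cells, 41 with DFMO and 73 with water, several list medians lay nearer to 0 than in all Treg cells. The choice of these cells fixes part of this, since the naive list holds all 6 resting score genes, the tissue effector programme 5 of the 6 effector score genes, the suppressive list 1 (Gzmb) and the costimulatory list 1 (Tnfrsf9). Over 2315 genes, 69 (2.98%) were at least 2-fold higher and 68 (2.94%) at least 2-fold lower with DFMO (median 0.02). The median was -0.17 for 18 suppressive molecules, -0.14 for 24 genes of the tissue effector programme and -0.20 for 33 interferon response genes. Without cells rich in other markers these medians were -0.34, -0.18 and -0.10, and that of the naive and recirculating list moved from 0.20 to -0.027. With the score genes left out of the lists, an alternative added after seeing the data, the medians of all and of effector-type Treg cells were -0.70 and -0.072 for suppressive molecules and -0.48 and -0.048 for the tissue effector programme, and the naive list had a median of 1.37 in all Treg cells and too few measured genes in effector-type cells. Ctla4 was at 1396 CPM in 37 of 41 DFMO cells and 1453 CPM in 54 of 73 water cells (-0.06 [-0.30, 0.19]), and Tnfrsf4 at 2897 CPM and 3197 CPM (-0.14 [-0.31, 0.02]). Some genes kept a difference. Il2ra was at 399 CPM in 23 of 41 and 697 CPM in 54 of 73 cells (-0.81 [-1.24, -0.38]). Izumo1r was at 1078 CPM in 31 cells and 689 CPM in 46 cells (0.65 [0.33, 0.96]).

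Gzmb was at 2324 CPM in 24 of 41 effector-type DFMO cells and 3623 CPM in 60 of 73 effector-type water cells (-0.64 [-0.82, -0.47]). Gzmb is 1 of the genes that define these cells. Lgals1, the lectin galectin-1, was at 3601 CPM and 6095 CPM (-0.76 [-0.90, -0.62]), and Isg15 at 1115 CPM and 1859 CPM (-0.74 [-0.99, -0.49]). Cd83 again stood higher, with 29 UMIs in 8 of 41 cells and 1 UMI in 1 of 73 cells (5.50 [2.91, 10.86]). Higher too were Itgae at 237 CPM in 16 cells and 71.7 CPM in 11 cells (1.72 [0.88, 2.62]) and the transcription factor gene Ikzf3 at 274 CPM and 119 CPM (1.20 [0.50, 1.92]). Il7r, the interleukin-7 receptor, was at 249 CPM in 20 cells and 112 CPM in 18 cells (1.16 [0.43, 1.91]). Of 14 genes of the NF-kB pathway, 12 were higher (median 0.39). The transcription factor genes Relb, at 199 CPM and 99.5 CPM (1.002 [0.20, 1.82]), and Rela, at 137 CPM and 67.7 CPM (1.02 [0.04, 2.02]), were the 2 past 2-fold. Without cells rich in other markers the median was 0.28, Relb was at 0.99 [0.12, 1.89], Rela had under 30 UMIs, and Nfkbid, an inhibitor family member, was the 1 past 2-fold (1.10 [-0.0087, 2.25]). In that setting 59 of 1945 genes (3.03%) were at least 2-fold higher and 41 (2.11%) at least 2-fold lower.

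Odc1, the target of DFMO, was lower in the sum of all DFMO Treg cells and differed less in effector-type cells. It was at 586 CPM [501, 680] in 39 of 93 DFMO cells and at 1017 CPM [901, 1144] in 68 of 85 water cells, a log2 ratio of -0.80 [-1.08, -0.52]. With cells thinned to 1000 UMIs, the share with an Odc1 UMI was 27.7% and 54.8%. In effector-type cells Odc1 was at 885 CPM in 26 of 41 and 1023 CPM in 60 of 73 cells (-0.21 [-0.52, 0.09]). In resting-type DFMO cells it was at 170 CPM [105, 260] in 10 of 48 cells, below effector-type cells of the same library (-2.38 [-3.11, -1.71]). The 11 resting-type water cells were at 1020.0 CPM [623, 1575], with UMIs in 8 of them. Odc1 thus stood low in only 1 of the 4 sets, the resting-type cells of the DFMO library. These are transcript levels, and enzyme activity was not measured.

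The other polyamine genes showed smaller differences. Of the 26 listed genes, Odc1 included, 12 reached 30 UMIs. Of these, 5 were higher and 7 lower with DFMO, none at least 2-fold, and the median was -0.11. Its sign was not stable across alternatives. Sat1, which acetylates spermidine and spermine for export, was at 312 CPM in 45 cells and 492 CPM in 60 cells (-0.66 [-1.06, -0.26]). Oaz1, the antizyme that directs ornithine decarboxylase to degradation, was at 1832 CPM and 1638 CPM (0.16 [-0.02, 0.35]). Eif5a, whose protein carries the spermidine-derived hypusine, was at 1117 CPM and 944 CPM (0.24 [0.00, 0.48]). The spermine synthase gene Sms had 26 and 16 UMIs (0.60 [-0.35, 1.60]), the spermidine synthase gene Srm 17 and 17 (-0.10 [-1.16, 0.96]) and the spermine oxidase gene Smox 17 and 23 (-0.54 [-1.53, 0.43]). Ass1, the urea cycle enzyme that makes argininosuccinate, was at 695 CPM in 70 cells and 602 CPM in 61 cells (0.21 [-0.10, 0.51]). Arg1, arginase, had 0 UMIs with DFMO and 1 UMI with water.

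**Figure D3:**
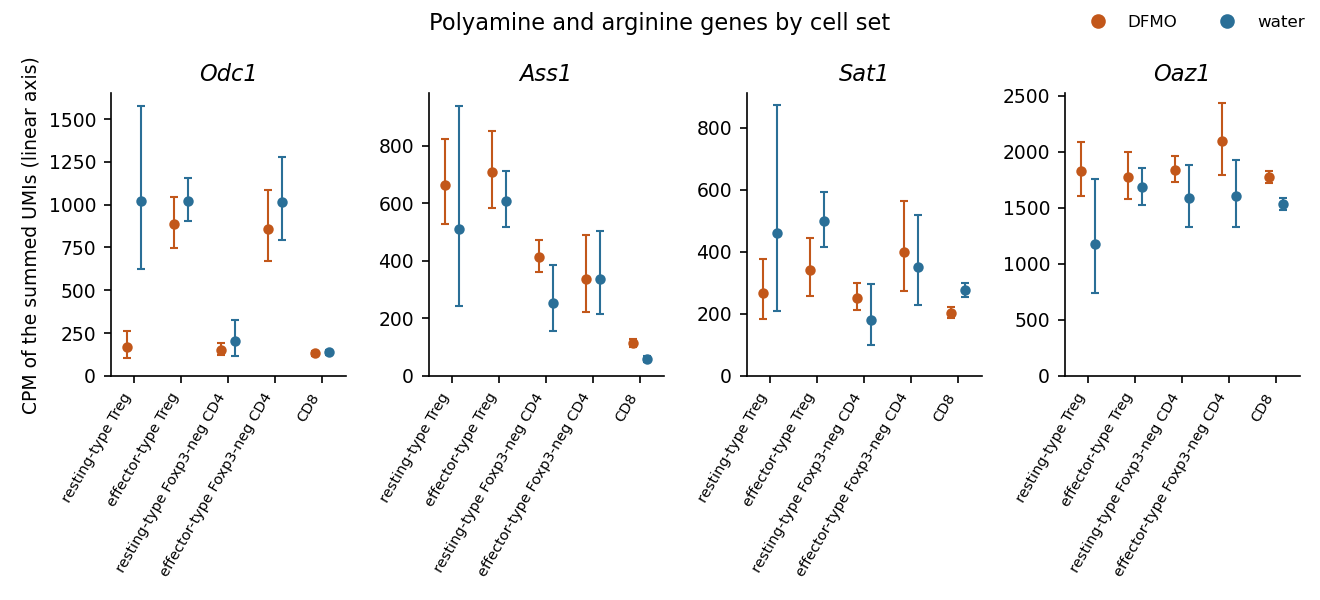
CPM of Odc1, Ass1, Sat1 and Oaz1 (linear axes from 0, a scale for each gene) in resting-type and effector-type Treg cells, resting-type and effector-type Foxp3-negative CD4 T cells and CD8 T cells, for DFMO (orange) and water (blue), with exact 95% Poisson intervals as bars. Odc1 lies between 860 and 1023 CPM in the 4 effector-type sets and at 170 CPM in resting-type Treg cells of the DFMO library.

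Odc1 in Treg cells was close to that of Foxp3-negative CD4 T cells of the same type and library in 3 of 4 pairs. Effector-type Treg and Foxp3-negative cells were at 885 CPM and 860 CPM [669, 1088] with DFMO, and at 1023 CPM and 1014 CPM [794, 1277] with water. Resting-type Treg and Foxp3-negative cells were at 170 CPM and 154 CPM [123, 191] with DFMO. With water, the 11 resting-type Treg cells were at 1020.0 CPM and 26 Foxp3-negative cells at 204 CPM [119, 327], and these intervals were apart. Ass1 stood higher in Treg cells, at 710 CPM and 336 CPM in effector-type cells with DFMO and at 609 CPM and 338 CPM with water. Effector-type Foxp3-negative cells numbered 22 and 30. In Foxp3-negative CD4 T cells as a whole, Odc1 was at 256 CPM and 560 CPM with DFMO and water (-1.13 [-1.51, -0.75]), and in CD8 T cells at 133 CPM and 137 CPM (-0.05 [-0.28, 0.19]).

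Compared with Foxp3-negative CD4 T cells of the same library, Treg cells were higher in lineage markers, suppressive molecules and costimulatory receptors in both libraries. Of 2415 genes measured in both, 71 (2.94%) were at least 2-fold higher and 20 (0.828%) at least 2-fold lower in both libraries, and Foxp3, a gene of the rule, is among the 71. Within the DFMO library alone 4.84% were higher and 5.84% lower, and within the water library 6.62% and 4.13%. A Treg cell with a Cd4 UMI but no captured Foxp3 UMI falls among the Foxp3-negative cells. With Ikzf2- or Il2ra-positive cells left out of the Foxp3-negative cells, 90 genes were at least 2-fold higher and 12 lower in both libraries. Il2ra was at 377 CPM and 49.2 CPM with DFMO (2.94 [2.35, 3.56]) and at 661 CPM and 91.4 CPM with water (2.86 [2.09, 3.72]). Ikzf2 had log2 ratios of Treg over Foxp3-negative cells of 3.01 and 2.09, Tnfrsf4 of 2.75 and 1.61, Ctla4 of 2.50 and 1.48, and Izumo1r of 1.76 and 2.23, with DFMO and water. Klrg1, a receptor of differentiated lymphocytes, had ratios of 2.96 and 3.51, Tigit of 2.12 and 2.45, Tnfrsf18 of 1.93 and 1.49 and Icos of 1.43 and 1.35. Among genes less often used as markers, Pglyrp1, a peptidoglycan recognition protein, had ratios of 1.96 and 2.05, Cmtm7 of 1.85 and 1.91, and Glrx of 2.02 and 1.84. Odc1 (1.20 and 0.86) and Ass1 (0.81 and 1.10) were also higher. These whole-set ratios, here and in the paragraph after the figure, compare unlike mixes of types. Effector-type cells were 44.1% and 85.9% of Treg cells and 8.37% and 48.4% of Foxp3-negative CD4 T cells, with DFMO and water. Between cells of the same type and library, Odc1 was close in most pairs, as given above. The part of these mixes in the ratios was not tested.

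**Figure D4:**
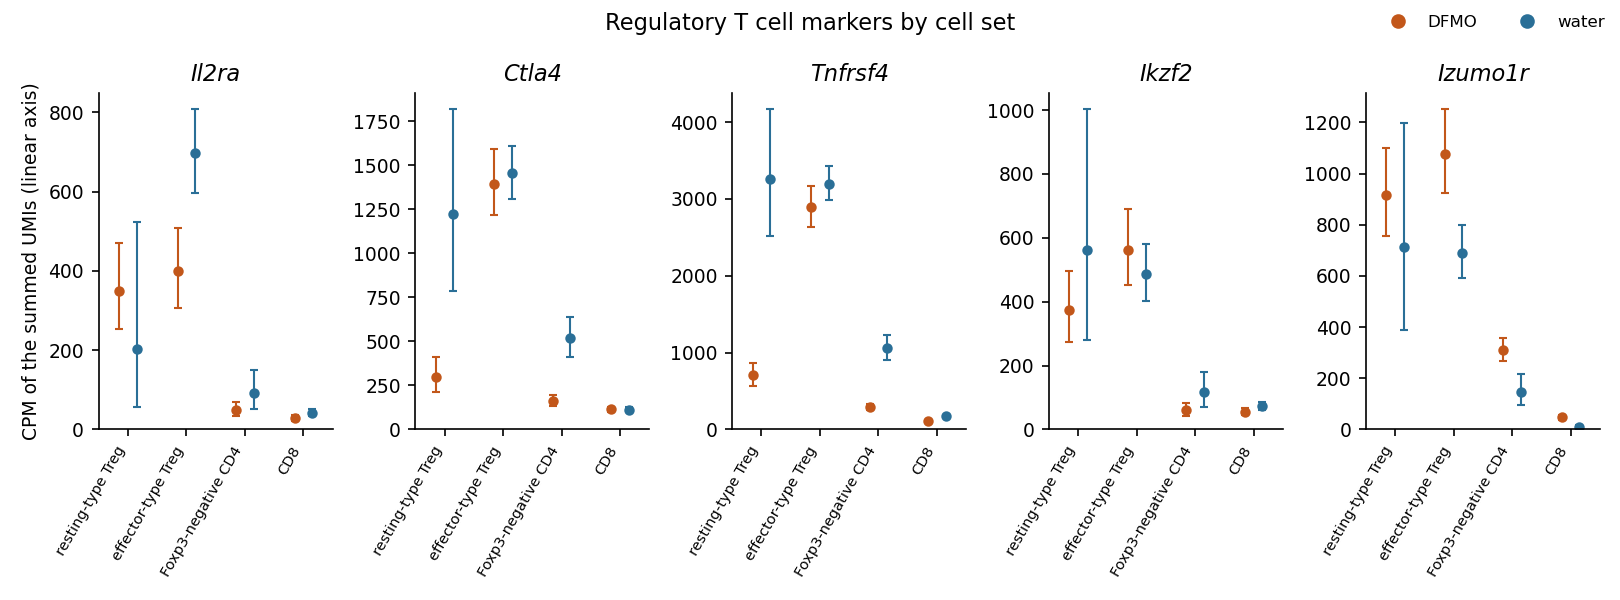
CPM of the 5 lineage markers that the rule did not use (linear axes from 0, a scale for each gene) in resting-type and effector-type Treg cells, Foxp3-negative CD4 T cells and CD8 T cells, for DFMO (orange) and water (blue), with exact 95% Poisson intervals as bars. In each library both Treg sets lie above the Foxp3-negative CD4 and CD8 T cells for each gene, with wide intervals for the 11 resting-type water cells (Il2ra at 204 CPM [55.6, 522]).

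Of the suppressive list, 15 of 17 measured genes were higher in Treg cells in each library, with medians of 1.55 with DFMO and 0.86 with water, beside -0.06 and -0.01 over all genes tested. Costimulatory receptors had medians of 0.94 and 1.17. All 14 glycolysis genes were higher with DFMO and 13 of 14 with water (medians 0.82 and 0.46), among them Gapdh at 5346 CPM and 2889 CPM in Treg and Foxp3-negative cells with DFMO. All measured MHC class I genes were higher, 11 with DFMO and 10 with water (0.47 and 0.30). Lower in Treg cells were the MYC and ribosome biogenesis genes, 16 of 17 and 7 of 7 (-0.59 and -0.42, or -0.28 and -0.067 without cells rich in other markers, where 3 of 5 genes were lower with water), and heat shock genes, 9 of 11 and 9 of 10 (-0.27 and -0.38). Ccr7 had 53 and 399 UMIs with DFMO (-1.80 [-2.25, -1.39]) and 2 and 31 UMIs with water (-4.68 [-7.79, -2.71]). The chromatin organiser Satb1 (-2.17 and -1.28) and the antiproliferative gene Btg2 (-1.60 and -2.20) were past 2-fold in both libraries, and Il7r (-1.03 and -0.89) in the DFMO library. Gzma is not read, since 1 Treg cell per library carried all of it, and neither are H2-Aa, H2-Ab1 and H2-Eb1, since 1 Foxp3-negative cell per library carried 66.2% to 97.4% of them. Without cells rich in other markers, 67 of 2002 genes (3.35%) were at least 2-fold higher and 19 (0.949%) at least 2-fold lower in both libraries.

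The lineage markers also separated resting-type Treg cells from resting-type Foxp3-negative CD4 T cells of the DFMO library. Ikzf2 was at 373 CPM in 26 of 48 Treg cells and 22.6 CPM in 8 of 236 Foxp3-negative cells (4.05 [3.11, 5.10]). Il2ra was at 349 CPM in 22 cells and 37.6 CPM in 7 cells (3.21 [2.42, 4.06]), and Ctla4 at 300.0 CPM in 20 cells and 67.7 CPM in 20 cells (2.15 [1.45, 2.85]).

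Against CD8 T cells, 193 of 7117 genes (2.71%) were at least 2-fold higher and 274 (3.85%) at least 2-fold lower in Treg cells of both libraries. The shares within the DFMO library alone were 7.13% and 9.21%, and within the water library 6.32% and 13.6%. Without cells rich in other markers the numbers were 223 of 6611 (3.37%) and 279 (4.22%). Izumo1r had log2 ratios of 4.49 and 6.08 with DFMO and water, Tnfrsf4 of 4.11 and 4.19, Il2ra of 3.72 and 4.01, and Ctla4 of 2.99 and 3.68. Odc1 (2.14 and 2.89) and Ass1 (2.60 and 3.38) were among the 20 highest genes. Gzmb, shared by both kinds of cell, had ratios of -0.13 [-0.28, 0.03] and 0.85 [0.74, 0.95]. The lowest ratios belonged to natural killer receptor genes such as Klrd1 and Klrc1 and to the chemokine gene Xcl1.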

How the data were processed

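The authors deposited 1 matrix of UMI counts for 17775 genes in 10720 cells and a cell table whose group column names the library of each cell. Per the submitters' processing notes, Cell Ranger 3.02, Scanpy 1.4.4 and mm10 were used. The deposited counts were raw whole numbers, the authors' cell filter is not given in the sources used here, and 0 genes had a ribosomal protein or mitochondrial name. Treg cells and all gene lists were chosen with earlier results of these data known. Counts were summed per library and cell set, and a gene needed 30 UMIs over both sides of a comparison. Ratios of CPM carry exact conditional binomial intervals, CPM exact Poisson intervals and shares exact Clopper-Pearson intervals, all at 95%. Of these, only the ratio intervals were checked on simulated data. The data were drawn as Poisson counts, so the check leaves out the spread between cells. A count of 0 was taken as 3 UMIs. In ratios the other count was held as counted, so such a ratio is not an exact bound. Named genes were the lineage markers, the polyamine genes, at 100 UMIs and 50 CPM or more the 12 largest ratios in each direction (20 and 10 against other T cells), and for each list the 4 members with most UMIs and all past 2-fold. Scrublet in scanpy 1.11.5 called 53 (1.19%) and 121 (1.94%) cells as doublets, 0 and 1 of them Treg cells, and none was removed. Alternatives varied the Foxp3 and cycling limits, a Cd4 UMI, doublets, cells rich in other markers, score genes in the lists, weighting of cells, TMM sizes (edgeR 4.0.16) and the UMI minimum. Python 3.11.15 with numpy 2.4.6, scipy 1.17.1 and pandas 2.3.3 was used. Some genes of the lists, markers and scores were used in the sums but are not reported here.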

Additional observations from a re-analysis of the deposited data

Results flagged for a closer look

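Foxp3 UMIs also occurred outside the Treg cells, in CD3-positive cells that held a Cd8a or Cd8b1 UMI. In the DFMO library these were 18 of 913 such cells (1.97% [1.17, 3.10]), above the limit of 0.197% that 0 of 1524 B cells allows. In the water library they were 30 of 862 (3.48% [2.36, 4.93]). That interval holds the limit of 3.26% that 0 of 92 B cells allows, and also their exact upper limit of 3.93%. At least 2 of the other 5 Treg markers were found in 17 of the 18 and 29 of the 30 cells, against 17.4% and 26.3% of Foxp3-negative CD8-positive cells. A Cd4 UMI was found in 10 (55.6%) and 14 (46.7%) of them, against 3.80% and 0.721%. Their median depth was 3652.5 and 4476.5 UMIs, against 2598 and 3224.5.

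Ly6c1, a surface antigen of naive and memory T cells, had opposite directions in Treg cells (1.89, higher with DFMO) and in CD8 T cells (-2.23, lower with DFMO). The difference was not tested. All 31 Ly6c1 UMIs of the water Treg cells lay in 1 cell rich in natural killer cell markers, and without marker-rich cells the Treg counts were 59 with DFMO and 0 with water.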

How the results depend on the processing

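No paired analysis was possible because DFMO and water had 1 library each, so that none could be left out. Depth limits most single genes, since the Treg cells of a library held 291987 UMIs or fewer. The Treg share of CD3-positive CD8-negative cells stayed lower and the resting-type share higher in DFMO under every alternative run. The share of CD3-positive CD8-negative cells, DFMO and water, was 6.43% and 13.2% with at least 2 Foxp3 UMIs, 4.44% and 8.73% with a Cd4 UMI, and 7.08% and 13.8% thinned. The Foxp3 and Cd4 limits were set on the Treg cells alone, with the denominators left at 855 and 424 cells. The resting-type share of DFMO cells with a Cd4 UMI was 31.6%, and its counting interval overlapped that of water.

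Genes past 2-fold in all Treg cells, higher and lower, numbered 87 and 64 with at least 2 Foxp3 UMIs, 60 and 47 with a Cd4 UMI, 109 and 162 with TMM sizes, 849 and 346 at 10 UMIs, and 11 and 32 at 100 UMIs, and 199 were lower with each cell weighted alike. In effector-type cells they numbered 42 and 41 with at least 2 Foxp3 UMIs, 37 and 37 with a Cd4 UMI, 482 and 367 at 10 UMIs, and 3 and 8 at 100 UMIs, and 41 were lower without cells rich in other markers, an alternative chosen after seeing the data. Against Foxp3-negative CD4 T cells, the genes lower in both libraries were 38 with at least 2 Foxp3 UMIs, 42 with a Cd4 UMI and 12 with Ikzf2- or Il2ra-positive cells left out of the comparator.

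Of values larger than their counting error, those reversed in all Treg cells were S100a6 (0.28 without doublets, 0.25 with no cycling limit), H19 (0.46 without doublets), and the list medians of polyamine genes (0.14 with at least 2 Foxp3 UMIs, 0.20 with a Cd4 UMI, 0.043 with no cycling limit, 0.046 without marker-rich cells, 0.093 with cells weighted alike, 0.12 at 10 UMIs), naive genes (-0.32 with a Cd4 UMI), NF-kB genes (-0.049 with a Cd4 UMI, -0.021 with TMM), heat shock genes (-0.14 and -0.050, likewise) and the respiratory chain (-0.012 with TMM). In effector-type cells they were S100a6 (0.18 without doublets), Lag3 (0.020) and Nkg7 (0.077) with a Cd4 UMI, and Npm1 (-0.0037), Cst3 (0.58) and the tissue effector median (0.014) with no cycling limit. The cause was not tested. In this paragraph, the counting error of a list median was taken from the interval of the ratio of the list's summed UMIs. An error of the median itself was not taken. Of the other single-gene and list values, 1066 moved by less than their interval and 229 by more, and 48 of these changed sign from a value within counting error of 0. Among the latter were the effector-type medians of naive genes (-0.027), immediate early genes (0.049) and polyamine genes (0.059) without marker-rich cells.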

Other observations

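T cell receptor beta variable segments, the parts of the receptor gene joined in each T cell, were read in most Treg cells by the 5′ library. A UMI of at least 1 Trbv segment was found in 88 of 93 DFMO cells (94.6%) and 68 of 85 water cells (80.0%), and 21 and 18 of the 25 segments in the file were seen. Trbv13-2 was in 17 of 88 (19.3% [11.7, 29.1]) and 8 of 68 (11.8% [5.22, 21.9]) of these cells, and in 24.2% and 18.9% of Foxp3-negative CD4 T cells with a segment. Segments are close copies of each other, so reads may be split between them.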
